A study of Mus musculus with 4 samples.

Results

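Pyrimidine and deoxynucleotide synthesis was followed through 10 genes, Cad, Dhodh, Umps, Rrm1, Rrm2, Dut, Tyms, Tk1, Dck and Dctpp1, in mouse mammary tumor cells with a NOTCH1 transgene switched on or off. The 10 genes were taken by name from textbook knowledge of the pathway, when earlier results of these data were known. Counts of calls among them, and among the wider list and markers below, are therefore not those of a blind choice. Every probe set that carried a single one of these symbols was used, which gave 26 probe sets. The genes are 10 of the 18193 with a named probe set on the arrays. Where a gene had several probe sets, the brightest one over all arrays led and the others are given beside it. Cells of the lines 8534 and 8542, each grown from a mammary tumor of a different female MMTV-tTA/TOP-ICN1 mouse on an FVB/N;B6 background, were compared between cultures without drug and cultures kept for 24 h in doxycycline at 2 µg/ml. In these mice the mouse mammary tumor virus promoter drives a tetracycline transactivator, which in turn switches on ICN1, the intracellular part of human NOTCH1, and doxycycline silences it, so that both conditions share the transgenes and differ in the drug. There was 1 array per line and condition, 4 in all, and each line stands for 1 tumor.

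Dividing cells need the building blocks of DNA in balance. Cad, Dhodh and Umps make uridine monophosphate from small precursors, ribonucleotide reductase, built from Rrm1 and Rrm2, turns ribonucleotides into deoxyribonucleotides, and Dut and Tyms lead to the thymidine nucleotide that only DNA uses. Tk1 and Dck recover deoxynucleosides from outside or from breakdown, and several of these genes, Rrm2, Tyms and Tk1 among them, are known to be transcribed mainly around S phase.

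Promoters of these genes were set side by side because all 10 moved the same way. RefSeq (GRCm38.p6) promoters of 300 bases, 250 before to 50 after the start of the gene, were found for 9 of the 10 genes, all but Dhodh. The CCAAT box (CCAAT, on either strand), bound by the factor NF-Y, was present in 3 of the 9, Rrm1, Rrm2 and Dctpp1, and in 37.4% of all 32851 promoters of the same length. The E-box CACGTG, bound by MYC and related factors, was present only in Tyms among the 9, and in 7.15% of all promoters. None of the 9 held one of 4 E2F-type 8-mers (TTTCCCGC, TTTGGCGC, TTTCGCGC or TTTGCCGC, on either strand), which 2.26% of all promoters held. At that rate a match among 9 promoters is unlikely anyway, and other forms of the site were not searched. Their absence therefore says little. None of these motifs overlapped another in these promoters, and a match of letters shows neither binding nor a role. The 4 promoters with a match are printed 5′ to 3′ along the gene, from 250 to 26 bases before its start, with the CCAAT box (ATTGG where it lies on the other strand) or the E-box in capitals. They are Rrm1 at chr7:102441445-102441669 on the plus strand, with boxes that begin 91 and 45 bases before the start, Rrm2 at chr12:24708004-24708228 on the plus strand, with a box at 50 bases, Dctpp1 at chr7:127260693-127260917 on the minus strand, with boxes at 130 and 31 bases, and Tyms at chr5:30073651-30073875 on the minus strand, with the E-box at 61 bases.
Rrm1: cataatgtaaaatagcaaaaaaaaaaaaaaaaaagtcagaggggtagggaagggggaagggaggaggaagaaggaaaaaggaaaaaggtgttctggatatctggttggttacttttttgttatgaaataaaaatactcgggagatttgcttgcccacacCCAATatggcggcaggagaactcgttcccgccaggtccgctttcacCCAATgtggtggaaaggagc
Rrm2: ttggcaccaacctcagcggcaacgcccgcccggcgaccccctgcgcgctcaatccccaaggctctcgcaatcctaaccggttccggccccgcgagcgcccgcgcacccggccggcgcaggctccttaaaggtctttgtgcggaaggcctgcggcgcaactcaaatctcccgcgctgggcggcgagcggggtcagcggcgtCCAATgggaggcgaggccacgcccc
Dctpp1: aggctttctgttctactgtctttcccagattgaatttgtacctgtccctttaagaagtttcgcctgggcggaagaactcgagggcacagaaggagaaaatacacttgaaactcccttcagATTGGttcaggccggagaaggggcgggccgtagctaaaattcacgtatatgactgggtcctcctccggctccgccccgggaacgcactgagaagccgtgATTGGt
Tyms: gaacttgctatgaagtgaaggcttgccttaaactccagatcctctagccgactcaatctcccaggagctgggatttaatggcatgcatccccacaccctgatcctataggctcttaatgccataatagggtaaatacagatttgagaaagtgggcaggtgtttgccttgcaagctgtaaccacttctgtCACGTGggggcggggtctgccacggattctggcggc

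The arrays were on a like scale, with median log2 signals of 4.87 to 4.93. Of 5 NOTCH target genes, 4 fell with doxycycline (mean log2 changes of -4.71 to -1.76), and Hes1 changed by -0.60 without passing the test (adjusted p = 0.0579). All 5 luminal markers, Krt8 and Krt18 among them, lay above the array median on every array, with summed signals of 16160 to 22510. The 4 basal markers summed to 4451 and 7504 in line 8534 and to 188 and 236 in line 8542, in each case the untreated array first. Most of each sum was Acta2, at 3012 and 6588 in line 8534 and at 148 and 181 in line 8542. Krt14 went the other way, at 1379 and 869 and at 15.9 and 10.0. Trp63 read higher with doxycycline in both lines, and Krt5 lower in line 8534 and higher in line 8542. None of the 4 passed the test. Of the markers of other cells that were measured, 2 of 4 for leukocytes, 1 of 5 for fibroblasts, 1 of 4 for endothelium and 0 of 2 for adipocytes lay above the median on all arrays. Summed signals were 155 to 206 for leukocytes, 106 to 246 for endothelium and 16.5 to 24.6 for adipocytes, and for fibroblasts 690 and 865 in line 8534 and 134 and 131 in line 8542. Ptprc, Pecam1 and Adipoq had mean log2 signals of 2.77, 2.89 and 0.25, where the lowest 25% of probe sets ended at 2.94, while the brightest markers of the leukocyte, endothelial and fibroblast lists, Csf1r, Kdr and Col1a2, had 6.77, 6.43 and 7.25. The part of other cell types in the results was not tested.

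All 10 genes fell with doxycycline, the drug that silences ICN1. No cells without the transgene were arrayed, so effects of the drug itself and of ICN1 loss cannot be told apart. By limma, with the cell line as a block and Benjamini-Hochberg adjustment over 33778 probe sets, 10 of 10 were called lower at an adjusted p under 0.05, where 6.95% of the 15070 genes tested were called lower. Their median change on the log2 scale was -1.38 in line 8534, a 2.60-fold drop, and -2.08 in line 8542, a 4.23-fold drop. The median of the mean change over both lines was -1.82, against 0.02 for all genes tested. A drop of over 2-fold in each line was reached by 6 of the 10, Rrm1, Rrm2, Dut, Tyms, Tk1 and Dck, where 4.42% of all 18193 genes were. The other 4 genes, Cad, Dhodh, Umps and Dctpp1, passed 2-fold only in line 8542 (2.00-fold to 2.75-fold) and were 1.61-fold to 1.80-fold lower in line 8534. The p-values rest mostly on a variance shared among probe sets of like signal (6.18 prior degrees of freedom) and less on the spread between the 2 lines (1 residual degree of freedom). Without the line as a block none of the 10 passed (adjusted p of 0.0663 to 0.254). Without the intensity trend of the variance none passed either (0.223 to 0.279). Averaging all probe sets of a gene in place of the brightest left 6 calls, since Cad, Dhodh and Umps were lost (adjusted p of 0.0657, 0.0520 and 0.192) and Tyms fell under the filter on low values.

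Markers of cycling cells moved with these genes. All 6 of Mki67, Top2a, Pcna, Ccna2, Cdk1 and Mcm2 were called lower, with median log2 changes of -2.64 in line 8534 and -4.00 in line 8542, and with mean changes from -3.98 (Mki67) to -2.05 (Pcna). Their part in the result was not tested. The arrays measured whole cultures, in which fewer cycling cells and less RNA per cell cannot be told apart.

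**Figure D1:**
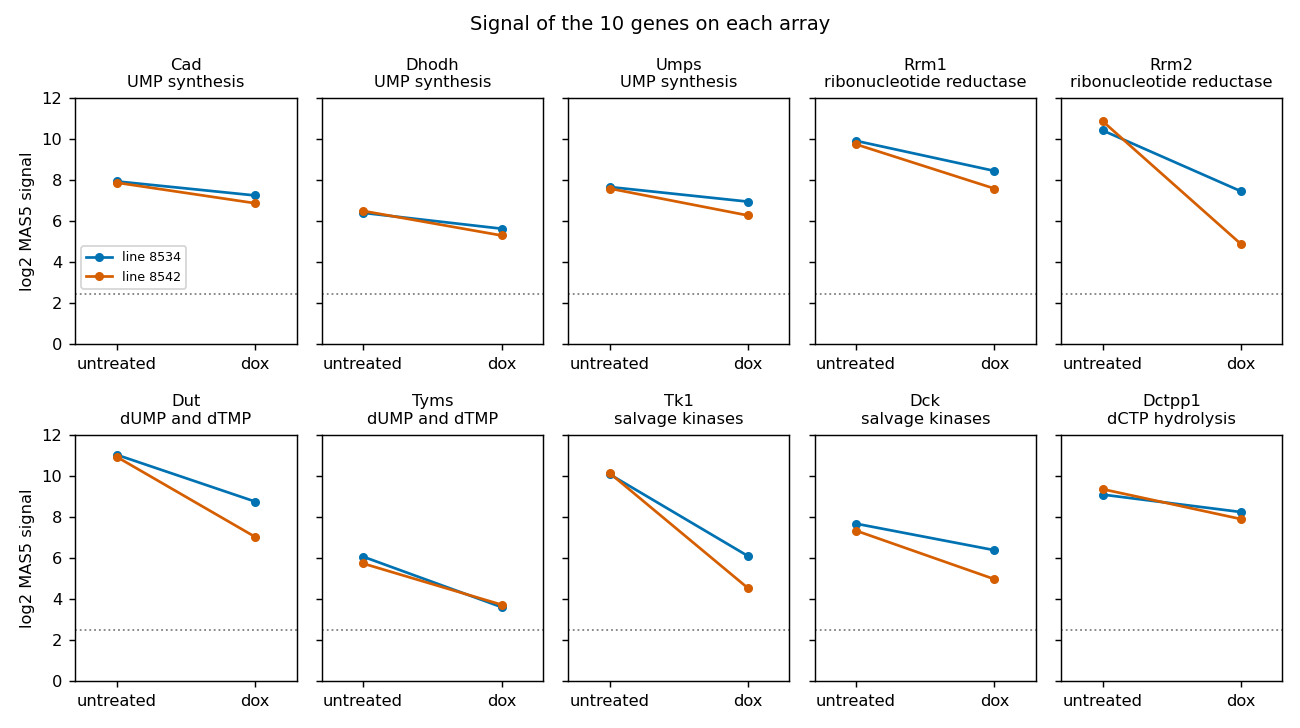
Deposited log2 signal of the brightest probe set of each of the 10 genes (y axis) on the untreated and doxycycline arrays of lines 8534 and 8542, 1 point per array. The dotted line is the 20th percentile of all probe sets (2.47), and all points lie above it.

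Ribonucleotide reductase fell in both subunits. Rrm1, the large catalytic subunit, had signals of 962 untreated and 348 with doxycycline in line 8534 and of 855 and 192 in line 8542. It was lower in both treated arrays, by 2.76-fold and 4.46-fold, and the mean log2 change was -1.81 ± 0.49 (SD of the changes in 2 lines, limma adjusted p = 0.00173). Rrm2, the small subunit that carries the radical and is usually limiting, went from 1366 to 175 in line 8534 and from 1876 to 29.5 in line 8542. The drops of 7.80-fold and 63.7-fold gave the larger of the 2 subunits' mean changes, -4.48 ± 2.14 (adjusted p = 0.00450), at rank 23 among the 18193 genes ordered from the lowest mean change. The other probe sets of Rrm2 gave 8.15-fold and 68.9-fold in the one case (adjusted p = 0.00461) and 6.71-fold and 75.4-fold in the other (adjusted p = 0.00773). All 3 probe sets of Rrm2 fell further in line 8542 than in line 8534. The leading probe set of Rrm2 is of a kind that can bind related transcripts. The next brightest is not of that kind, and it read 717 and 88.0 in line 8534 and 929 and 13.5 in line 8542.

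The genes that lead from dUTP to dTMP fell as well. Dut, the dUTPase that keeps uracil out of DNA and supplies dUMP, had signals of 2080 and 428 in line 8534 and of 1940 and 130 in line 8542. It was 4.86-fold and 14.9-fold lower (mean log2 change -3.09 ± 1.14, adjusted p = 0.00199), and its other probe set was 3.79-fold and 14.7-fold lower (adjusted p = 0.00860). Tyms, thymidylate synthase, which methylates dUMP to dTMP, had signals of 66.5 and 12.1 in line 8534 and of 52.7 and 13.1 in line 8542. It was 5.49-fold and 4.02-fold lower (mean log2 change -2.23 ± 0.32, adjusted p = 0.00882). Among the 10 leading probe sets it was the only one to fall less in line 8542 than in line 8534. Tyms was dim, and its lowest treated log2 value, 3.60, was the lowest of the 10 leading probe sets. A second Tyms probe set was 2.98-fold and 3.91-fold lower without passing the test (adjusted p = 0.0838), and the remaining 2 were too dim to be tested.

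The salvage kinases held the gene with the largest mean change of the 10. Tk1, the cytosolic thymidine kinase, had signals of 1076 and 67.8 in line 8534 and of 1119 and 23.0 in line 8542. The drops of 15.9-fold and 48.8-fold gave a mean log2 change of -4.80 ± 1.15 (adjusted p = 0.000539), at rank 13 among all genes. Dck, which phosphorylates deoxycytidine and the purine deoxynucleosides, had signals of 202 and 82.7 in line 8534 and of 160 and 31.1 in line 8542. It was 2.45-fold and 5.15-fold lower (mean log2 change -1.83 ± 0.76, adjusted p = 0.00799). A second Dck probe set gave 3.36-fold and 5.42-fold (adjusted p = 0.00253), and the remaining one gave 1.70-fold and 8.16-fold, which did not pass (adjusted p = 0.0824). The order of the kinases held in each line, with the larger drop in Tk1, but this difference was not tested.

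Dctpp1, which hydrolyses dCTP and its modified forms, had signals of 541 and 299.9 in line 8534 and of 650 and 237 in line 8542. It was 1.80-fold and 2.75-fold lower (mean log2 change -1.15 ± 0.43, adjusted p = 0.00766) and had a single probe set. The drop of Dctpp1 in line 8534 stayed under 2-fold.

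The 3 genes of UMP synthesis fell by the smallest amounts, with mean log2 changes between -1.01 and -0.84. Cad, the enzyme of the first 3 steps from glutamine to dihydroorotate, had signals of 245 and 152 in line 8534 and of 234 and 117 in line 8542. It was 1.61-fold and 2.00-fold lower (mean log2 change -0.84 ± 0.22, adjusted p = 0.0230), and a second probe set, at 156, 90.3, 148 and 52.9 over the 4 arrays, had a mean change of -1.14 (adjusted p = 0.0231). Dhodh, the mitochondrial dihydroorotate dehydrogenase, had signals of 84.5 and 49.5 in line 8534 and of 90.1 and 39.4 in line 8542. It was 1.71-fold and 2.29-fold lower (mean log2 change -0.98 ± 0.30, adjusted p = 0.0458), and its second probe set gave the same mean change of -0.98 (adjusted p = 0.0433). Without a filter on low values, and with quantile normalization, the call on Dhodh was lost (adjusted p of 0.0816 and 0.0589). Umps, which turns orotate into UMP, had signals of 202 and 123 in line 8534 and of 192 and 77.4 in line 8542. It was 1.64-fold and 2.48-fold lower (mean log2 change -1.01 ± 0.42, adjusted p = 0.0236). Of its other probe sets, one was 2.66-fold and 1.59-fold lower (adjusted p = 0.0470), one changed by -1.29 and -0.21 on the log2 scale (adjusted p = 0.392) and one by -0.38 and 0.12 (adjusted p = 0.945). Of the 4 probe sets of Umps, 2 passed the test.

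**Figure D2:**
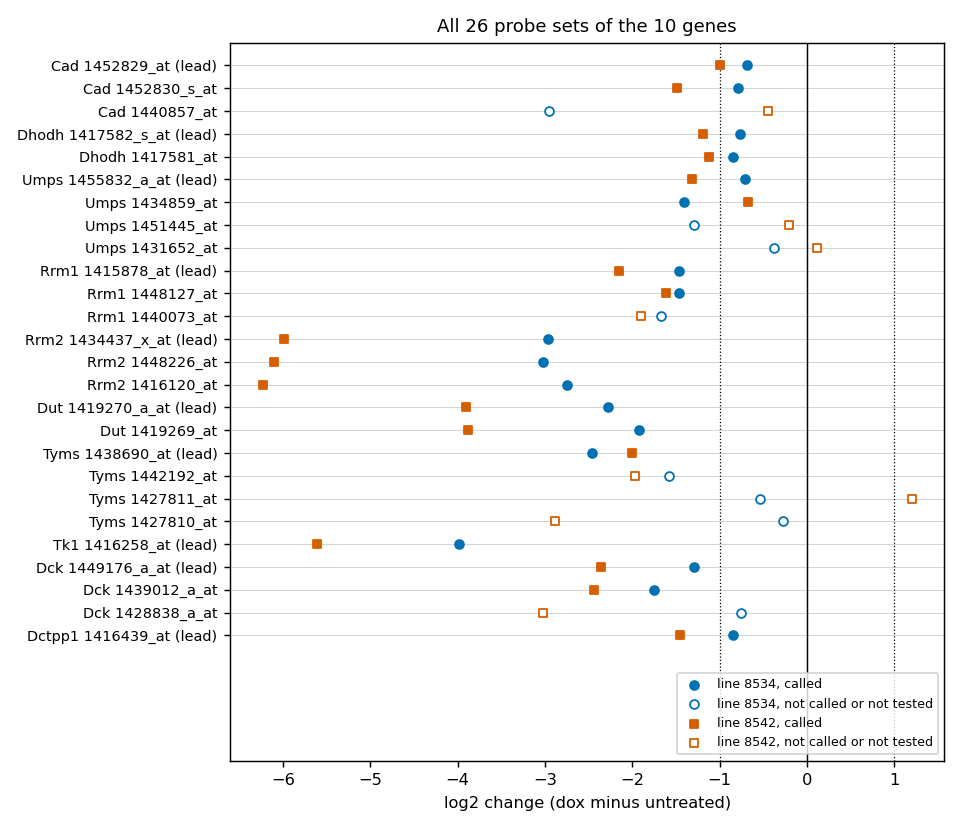
Log2 change, doxycycline minus untreated (x axis), of all 26 probe sets of the 10 genes, with a circle for line 8534 and a square for line 8542 and dotted lines at 2-fold. Filled points passed limma at an adjusted p under 0.05 over both lines, and the 3 probe sets of Rrm2 lie furthest to the lower side together with that of Tk1.

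Over all probe sets of the 10 genes, 23 of 26 were bright enough to be tested, and 18 of these were called lower, where 5.54% of all 33778 probe sets tested were called lower. None was called higher. The 5 that did not pass were those named for Umps, Tyms and Dck and another one of Rrm1, which was 3.18-fold and 3.73-fold lower (adjusted p = 0.0555). The second probe set of Rrm1 was 2.75-fold and 3.06-fold lower and passed (adjusted p = 0.00111). The 3 probe sets that were not tested were one of Cad, with signals between 0.876 and 11.7 over the 4 arrays, and 2 of Tyms, with signals between 2.48 and 5.70 in the one and between 1.68 and 13.4 in the other.

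On their leading probe sets the 10 genes read nearly alike in the untreated lines and lay further apart in the treated ones. Without doxycycline these log2 signals in line 8542 lay between 0.34 below and 0.46 above those in line 8534. The median absolute gap was 0.14, against 0.31 for all genes tested. With doxycycline the gap ran from -2.57 (Rrm2) to 0.12 (Tyms), with a median absolute gap of 0.77, against 0.33 for all genes tested. Not every other probe set followed. A second called one of Umps had a gap of -0.91 without doxycycline and of -0.17 with it. For the 1047 genes called lower the median absolute gap was 0.26 without doxycycline and 0.41 with it, and the signed median with it was -0.16, against -0.77 for the 10 genes. A further drop in line 8542 than in line 8534 was seen in 9 of the 10 leading probe sets (90%) and in 66.5% of the 1047 genes called lower. Over all 26 probe sets of the 10 genes it was seen in 20 (76.9%). Another called probe set of Umps fell less in line 8542, with log2 changes of -1.41 in line 8534 and -0.67 in line 8542. The cycling markers fell further in line 8542 in 6 of 6 cases. With 1 array per line and condition the difference between the lines could not be tested.

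**Figure D3:**
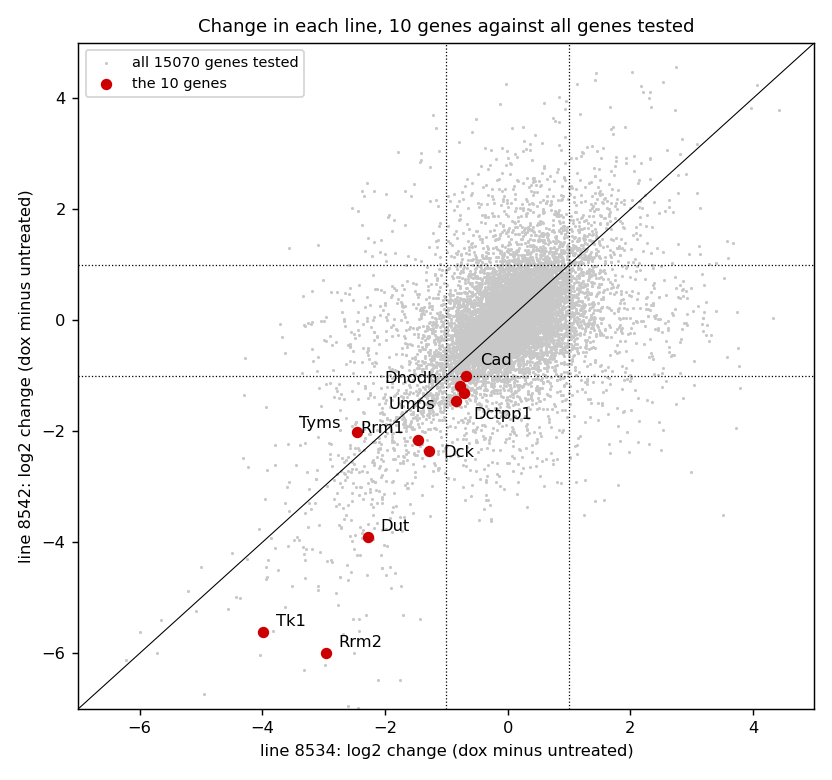
Log2 change with doxycycline in line 8534 (x axis) against line 8542 (y axis) for the 10 genes, over the 15070 genes tested in gray, with the line of equal change, with dotted lines at 2-fold and 5 genes outside the axes. On the leading probe sets plotted, 9 of the 10 genes had the larger drop in line 8542, and Rrm2 lies furthest down at 63.7-fold.

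Other genes of nucleotide supply were read from a list of 43 symbols, of which 38 were measured and 36 tested. Of these 36, 9 were called lower, where 6.95% of all genes were, 2 were called higher, where 4.76% were, and 25 did not pass. The share called higher was thus near that of all genes, and one of the 2, Nt5e, passed the filter on low values only through its doxycycline arrays. Their median log2 change was -0.01 in line 8534 and -0.25 in line 8542, and 2 of the 38, Shmt1 and Dtymk, were more than 2-fold lower in both lines. Without the line as a block only Shmt1 kept its call among the 11 (adjusted p = 0.0426), and without the intensity trend none did.

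The genes that supply dTMP and its one-carbon unit held 4 of the 9 calls, out of 6 tested. Shmt1, the cytosolic serine hydroxymethyltransferase that supplies the methyl group for dTMP, had signals of 319 and 55.4 in line 8534 and of 318 and 41.8 in line 8542, and was 5.75-fold and 7.61-fold lower (mean log2 change -2.73, adjusted p = 0.000528). Dtymk, which phosphorylates dTMP to dTDP, had signals of 470 and 228 in line 8534 and of 911 and 273 in line 8542, and was 2.06-fold and 3.34-fold lower (mean log2 change -1.39, adjusted p = 0.00482). In both genes the treated values lay below the untreated ones. The share of all genes with this order was not counted, so the order adds no support. Shmt2, the mitochondrial form, had a mean change of -0.72 (adjusted p = 0.0287), and Mthfd1, which interconverts folate one-carbon units, of -0.59 (adjusted p = 0.0381). The leading probe set of Shmt2 is of the kind that can bind related transcripts, and its others had mean changes of -0.90, -0.29 and 0.21. The call on Shmt2 was lost when all its probe sets were averaged (adjusted p = 0.326) and that on Mthfd1 without a filter on low values or with quantile normalization (adjusted p of 0.0549 and 0.0537).

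Among the genes of CTP and UTP synthesis and uridine salvage, 2 of 10 tested were lower. Nme1, a nucleoside diphosphate kinase, had signals of 1632 and 1049 in line 8534 and of 2700 and 1006 in line 8542 (mean log2 change -1.03, adjusted p = 0.0145), a call that was lost when its probe sets were averaged (adjusted p = 0.0824). Its leading probe set is of the kind that can bind related transcripts, and its other one had a mean change of -0.28. Prps1, which makes the phosphoribosyl donor, was 2.08-fold and 1.93-fold lower (adjusted p = 0.0107). The remaining lower genes act in clean-up and breakdown. Upb1, the last enzyme of pyrimidine breakdown, had a mean change of -1.12 (adjusted p = 0.0177), Nudt1, which removes oxidized purine nucleotides, of -0.78 (adjusted p = 0.0207), and the nucleotidase Nt5c3b of -0.83 (adjusted p = 0.0342). The call on Nt5c3b was lost without a filter on low values and when its probe sets were averaged (adjusted p of 0.0543 and 0.382).

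The 2 genes called higher were Nt5e and Nt5c, which encode nucleotidases that remove the phosphate of nucleoside monophosphates. Nt5e, the cell-surface form known as CD73, had signals of 6.04 and 51.3 in line 8534 and of 7.19 and 35.2 in line 8542, and read 8.50-fold and 4.90-fold higher (mean log2 change 2.69, adjusted p = 0.0166). Its untreated log2 signals, 2.59 and 2.85, lay under the filter at 2.94 and just above the 20th percentile at 2.47, so that it was tested because its treated signals were high and its call is no support for a change. Its other probe sets did not pass (adjusted p of 0.139 and 0.0887). Nt5c, a cytosolic form, had signals of 353 and 536 in line 8534 and of 557 and 814 in line 8542, and was 1.52-fold and 1.46-fold higher (mean log2 change 0.57, adjusted p = 0.0312).

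**Figure D4:**
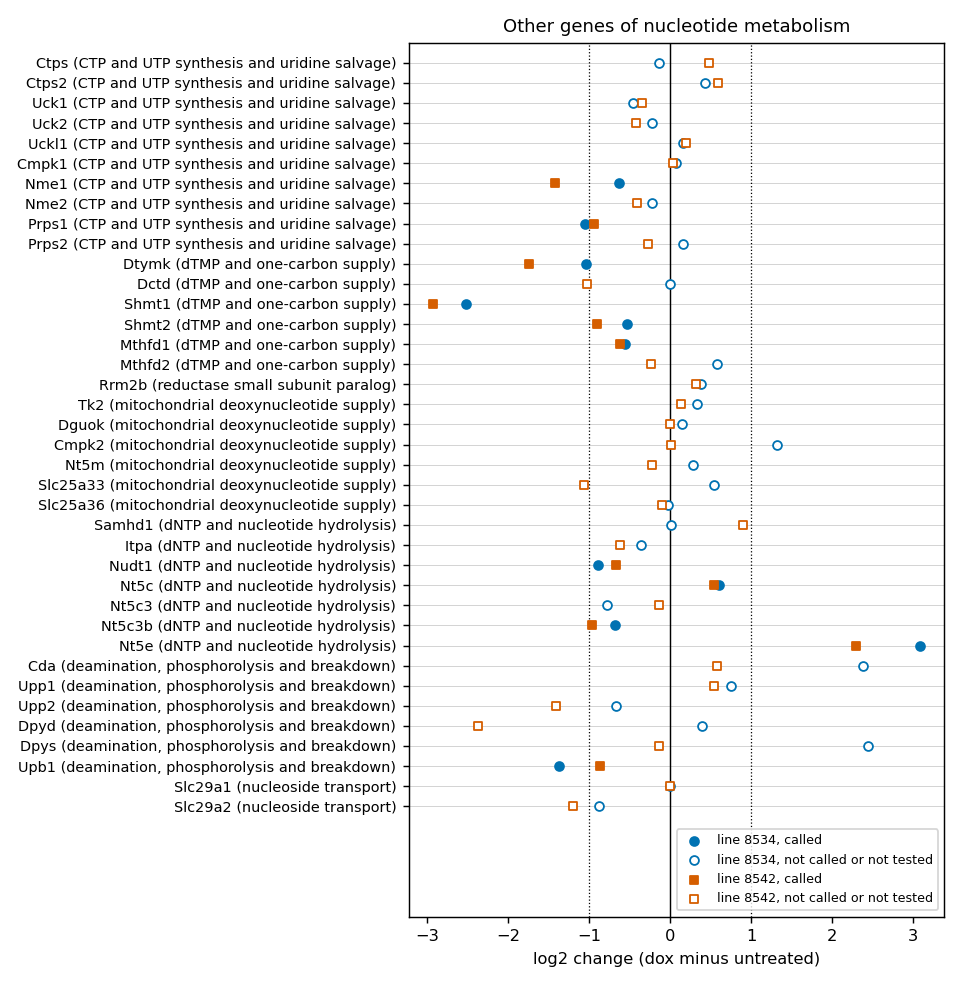
Log2 change, doxycycline minus untreated (x axis), of the 38 measured genes of the wider nucleotide list, grouped by role, with a circle for line 8534 and a square for line 8542 and dotted lines at 2-fold. Filled points passed limma at an adjusted p under 0.05, and they comprise 9 genes on the lower side, led by Shmt1, and 2 on the higher side, Nt5c and Nt5e, the latter tested only through its treated arrays.

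The counterparts of these enzymes that serve resting cells and mitochondria did not pass the test. Rrm2b, the reductase small subunit induced by p53, had signals of 105 and 137 in line 8534 and of 113.5 and 141 in line 8542, a mean log2 change of 0.35 (95% confidence interval -0.06 to 0.76, adjusted p = 0.301). Tk2, the mitochondrial thymidine kinase, had signals of 54.2 and 68.4 in line 8534 and of 75.6 and 83.1 in line 8542, a mean change of 0.24 (interval -0.27 to 0.75, adjusted p = 0.595). Dguok, the mitochondrial deoxyguanosine kinase, had signals of 157 and 174 in line 8534 and of 201 and 202 in line 8542, a mean change of 0.07 (interval -0.30 to 0.45, adjusted p = 0.844). All 3 read slightly higher with doxycycline in both lines, though Dguok hardly moved in line 8542 (0.002 on the log2 scale). The next brightest probe set of Rrm2b changed by 0.31 in line 8534 and by -0.05 in line 8542. None of the 6 genes of mitochondrial supply tested was called, which is near the shares of 6.95% lower and 4.76% higher over all genes. The intervals, from the same limma fit and unadjusted, do not reach the drops of 2.45-fold or more on the leading probe sets of Rrm2, Tk1 and Dck. Those drops are values of single lines. The interval of the leading Dck probe set ran from -2.48 to -1.18, and another Dck probe set fell only 1.70-fold in line 8534. The difference between a gene and its counterpart was not itself tested.

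Samhd1, the hydrolase that degrades dNTPs, had signals of 417 and 421 in line 8534 and of 250.1 and 468 in line 8542. The mean log2 change of 0.46 did not pass (interval -0.04 to 0.96, adjusted p = 0.263) and came from line 8542 alone. Another probe set of Samhd1 was called lower, with changes of -0.92 and -1.12 (adjusted p = 0.00899), so that the probe sets of this gene disagreed in direction.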

How the data were processed

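RNA of the tumor cell lines 8534 and 8542, untreated or treated with doxycycline, was measured on Affymetrix mouse arrays, 1 per line and condition, so that the number of arrays limits the precision. The deposited values are log2 signals that the authors computed with MAS5, whose version and scaling target the sources used here do not give. The methods name the first array of a set, whereas the values cover 45037 probe sets besides 64 control probe sets, which were left out. The GEO platform annotation, which can be old, paired 34945 probe sets with 1 gene symbol, 932 with several and 9160 with none, and only the first kind was named. A Tyms probe set shared with a pseudogene was therefore not used.

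Limma 3.58.1 in R 4.3.3 was fitted to the log2 values of the 33778 probe sets with a mean at or above the 25th percentile (2.94), which covered 15070 genes, with treatment and cell line as terms and an intensity trend. This left 1 residual degree of freedom besides 6.18 prior ones. P-values were adjusted by Benjamini and Hochberg over these probe sets. The lines pair the arrays by design, and deviations within a line correlated at 0.36. Folds are of linear signals, 2 to the power of the log2 difference. Errors are the SD of the 2 within-line changes. Both arrays of a condition come from different tumors.

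The 10 genes, the wider list and the markers were chosen with earlier results of these data known. All 10 were to be named, with every called gene of the wider list and Rrm2b, Tk2, Dguok, Dtymk and Samhd1 whatever their values; 1 further gene is not reported here. Alternatives were the block, the trend, the filter, a floor or pseudocount at the 20th percentile, quantile normalization, median centring, the mean over a gene's probe sets, other fold thresholds and leaving out arrays or a line. Promoters came from RefSeq (GRCm38.p6) and were searched on both strands. A planned comparison of protein sequences was not made.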

Additional observations from a re-analysis of the deposited data

Results flagged for a closer look

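A pair of probe sets of these genes moved in opposite directions in the lines, and this difference was not tested. The dimmest probe set of Umps changed by -0.38 in line 8534 and by 0.12 in line 8542, a difference of 0.50 on the log2 scale (limma adjusted p of the mean change 0.945). One of the dim probe sets of Tyms changed by -0.54 and 1.20, a difference of 1.74, at signals of 2.48 to 5.70, which were too low for it to be tested. The brighter probe sets of both genes read lower with doxycycline in both lines.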

How the results depend on the processing

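All members tested stayed below 0 under every alternative, and no result reversed. With all 4 arrays, the block, the trend, the filters and the floor left the mean changes of the leading probe sets unaltered. Those settings could therefore not reverse a direction. Calls depended on how the variance was estimated. Without the pairing by line (no replicate block), 0 of the 10 genes, 1 gene of the wider list on the lower side and 0 on the higher side passed limma, with 10, 7 and 2 at an unadjusted p under 0.05. Over all probe sets, the calls went from 1872 lower and 1245 higher to 83 and 9. Without the intensity trend 0, 0 and 0 passed, with 10, 9 and 1 unadjusted, and no probe set passed. An unadjusted limma p under 0.05 was common, with 3988 of the 15070 genes tested in the main fit. Its share over all genes under the alternatives was not counted, so the unadjusted counts are no support. With the mean of a gene's probe sets 6 of the 10 passed. Leaving out 1 array without the block makes a lone array of one condition, which is assumed to vary like the other condition, so these counts say little about stability. Then 0 to 4 of the 10 passed, the 4 (Rrm1, Rrm2, Dut and Tk1) when the doxycycline array of line 8534 was left out, with 7 to 10 unadjusted. The wider list then gave 0 to 1 lower and 0 higher calls, and the median change of the 10 genes ranged from -2.21 to -1.25, the latter without the doxycycline array of line 8542. The number more than 2-fold lower in both lines, 6, became 10 at 1.5-fold and 4 at 4-fold, and was 10 in line 8542 alone and 6 in line 8534 alone. Under the filters, floor, pseudocount, quantile normalization and median centring, 9 or 10 of the 10 passed, with Tyms not tested at the median filter. The cause of these changes was not tested. Values near the 20th percentile, as for Nt5e, limit how well a fold is known.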
